A study of Mus musculus with 4 samples.

Results

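The astrocyte genes described here are Gfap, Aldoc, Glul, Slc1a3 and Dio2, 5 of the 10698 genes that the platform annotation named with 1 gene per spot. All spots annotated to them were taken, 8 of 16281 spots. On 1 or more arrays 7 of these spots were measured, and 6 were measured at every time. The 5 genes were chosen by log ratios already seen on these same arrays (Aldoc and Gfap at 2 h, and the means over the times of Dio2, Glul and Slc1a3), so their values are given as a description with no test. The RNA came from CA1, the hippocampal field of pyramidal neurons that sends much of the output of the hippocampus, in young male C57BL/6J mice. Each array set an MK sample, from mice injected with MK-801 alone, against an MK C+S sample, from mice injected with MK-801 1 h before contextual fear conditioning, and MK-801 (a blocker of NMDA-type glutamate receptors) was therefore given to both. The labelled dose was 300 micrograms per g, which is far above doses usual in mice and is given only as labelled. Conditioning was 2 min in an unfamiliar chamber followed by a shock of 1 s at 0.5 mA, given 3 times, and RNA was taken at 1, 2, 4 and 6 h after the last shock with 1 array at each time. A group without MK-801 is not analysed here. MK carried Cyanine-3 and MK C+S Cyanine-5 on all 4 arrays, so dye and conditioning cannot be told apart. How many animals each RNA came from is not stated in the labels. With 1 array per time, an SD over n arrays below is the spread between times. In it, time and the error of single arrays cannot be told apart, and no replicate measures that error.

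Values are log ratios per spot. Neither the labels nor the files state the base, and base 10 was assumed. Every fold value below rests on that assumption. An exact 0 was read as not measured, and each array was centred on the median of its measured spots. A positive value likely stands for more RNA in MK C+S, by the common practice of Cyanine-5 over Cyanine-3, but the labels do not state the direction and the array titles name MK first. Values are therefore called positive or negative here. A change of 2-fold is 0.301 on this scale. The 4 arrays held 12586, 14760, 15078 and 14650 measured spots at 1, 2, 4 and 6 h, and the median absolute deviation (MAD) of all spots was 0.103, 0.103, 0.100 and 0.146. Correlations between arrays across all spots (Pearson) ran from 0.0165 to 0.373, as a description of spots that share arrays and probes. A ratio carries no level, so how much astrocyte RNA the samples held cannot be read from these values, and fewer cells and less RNA per cell cannot be told apart in bulk tissue.

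Astrocytes take up the glutamate that neurons release, convert it to glutamine and return it, supply neurons with lactate and regulate local thyroid hormone. Slc1a3 encodes GLAST, a sodium-driven glutamate transporter of the astrocyte membrane. Glul encodes glutamine synthetase, which turns that glutamate and ammonia into glutamine. Aldoc encodes aldolase C, the brain form of a glycolytic enzyme. Gfap encodes the intermediate filament protein that marks astrocytes and accumulates in reactive ones. Dio2 encodes the deiodinase that converts thyroxine to the active hormone T3, which in brain is made largely in astrocytes and tanycytes.

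Dio2, Gfap and Aldoc were the members positive at all 4 times, except that Aldoc turned negative at 4 h once the running median of nearby spots was subtracted. Their promoter windows are shown because these 3 genes had the same sign on the arrays. RefSeq windows (GRCm38.p6) from 250 bases before to 50 after a gene's start were found for all 5 members. The Dio2 window is chr12:90738989-90739288 on the minus strand, the Gfap window chr11:102897151-102897450 on the minus strand, and the more upstream of the Aldoc windows chr11:78322823-78323122 on the plus strand. Capitals mark matches to any of 5 motifs searched on both strands.
Dio2: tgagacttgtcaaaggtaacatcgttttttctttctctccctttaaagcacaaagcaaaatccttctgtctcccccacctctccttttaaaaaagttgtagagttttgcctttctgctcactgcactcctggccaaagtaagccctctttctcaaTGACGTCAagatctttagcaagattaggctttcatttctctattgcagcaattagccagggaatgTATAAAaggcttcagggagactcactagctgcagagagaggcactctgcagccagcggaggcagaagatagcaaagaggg
Gfap: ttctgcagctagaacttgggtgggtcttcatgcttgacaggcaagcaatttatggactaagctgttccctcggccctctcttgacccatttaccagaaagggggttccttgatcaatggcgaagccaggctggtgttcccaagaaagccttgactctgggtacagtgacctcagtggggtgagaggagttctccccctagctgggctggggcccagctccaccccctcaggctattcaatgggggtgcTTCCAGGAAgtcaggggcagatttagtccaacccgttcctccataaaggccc
Aldoc: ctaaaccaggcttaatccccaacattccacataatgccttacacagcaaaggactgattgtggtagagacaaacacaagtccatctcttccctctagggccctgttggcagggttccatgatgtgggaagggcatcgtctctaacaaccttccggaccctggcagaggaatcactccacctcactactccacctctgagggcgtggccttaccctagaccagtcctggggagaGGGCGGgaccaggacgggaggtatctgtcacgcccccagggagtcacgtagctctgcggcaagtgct

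The Dio2 window held TGACGTCA, the full cyclic AMP response element, with its first base at position -95 from the gene's start, and TATAAA, the core site of TATA-binding protein, with its first base at -30. The response element was in 1.79% of 32851 RefSeq windows of this length and TATAAA in 13.6%. Among the members the element was found in the Dio2 window alone. The Gfap window held TTCCAGGAA, a match to TTCNNNGAA (a STAT site, in 8.30% of windows), which also matched in the Slc1a3 window and in the more downstream Aldoc window. The Aldoc window shown held GGGCGG, a GC box found in 35.7% of windows. The Glul window held that GC box and CCAAT, a motif in 37.4% of windows, and the Slc1a3 window held both as well as TATAAA read on the other strand. No match overlapped another. A match describes these letters only, and binding was not measured.

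The thyroid hormone activating enzyme had the highest mean log ratio of the 5 genes. Dio2 (chr12:90724552-90739038, 1 spot, number 14417) was at 0.27, 0.64, 0.41 and 0.23 on the 1, 2, 4 and 6 h arrays. All 4 arrays were positive, with the 2 h array highest and the 6 h array lowest. The 2 h value is a 4.34-fold difference and the 4 h value 2.55-fold, while 1 h and 6 h stayed below 2-fold at 1.88 and 1.70. At 2 h, 0.0678% of measured spots on the array were higher, against 1.06% at 4 h and 6.54% at 1 h. At 6 h, where the whole array was more spread, 16.6% of spots were higher. The mean over the times was 0.39 (SD 0.18, n = 4 arrays), and it lay between 0.304 and 0.44 when each array was left out in turn.

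The gene mean of glutamine synthetase had the highest SD between times among the 5 genes. Glul (chr1:153899929-153909723, 1 spot, number 3264) was at -0.12, 0.15, 0.498 and 0.26 on the same arrays. The 1 h array was the only negative one, and the 4 h array was highest at 3.14-fold, a value exceeded by 0.478% of spots on that array. The mean was 0.20 (SD 0.26, n = 4 arrays), which is less than its SD. Without the 4 h array the mean was 0.096, and without the 1 h array 0.302.

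**Figure D1:**
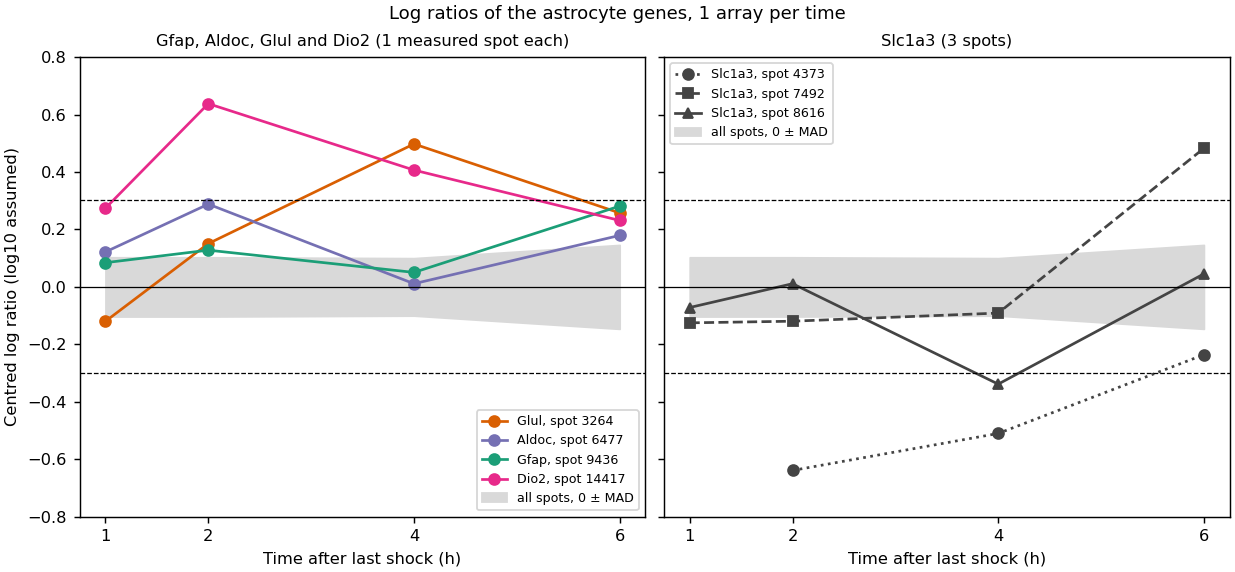
Centred log ratio (vertical axis, log10 assumed) of each measured spot against time after the last shock in hours, 1 array per time, with no error bars because no time has a replicate; dashed lines mark 2-fold and the grey band is 0 plus or minus the MAD of all spots on the array. Dio2 and Glul pass 2-fold at 4 h, Dio2 also at 2 h, and the 3 Slc1a3 spots lie apart from one another at 2, 4 and 6 h.

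The astrocyte filament gene and the brain aldolase were positive at all 4 times and below 2-fold when each array was centred on its median. Gfap (chr11:102887336-102897200, 1 spot, number 9436) was at 0.084, 0.13, 0.0504 and 0.28 at 1, 2, 4 and 6 h. Its 6 h value was the highest, at 1.91-fold, yet 13.5% of the spots on that more spread array were higher still. The mean was 0.14 (SD 0.10, n = 4 arrays). Aldoc (chr11:78323073-78327781) had 2 spots, and spot 11450 was listed at 0 on all 4 arrays. Its other spot, number 6477, was at 0.12, 0.29, 0.011 and 0.18, highest at 2 h (1.94-fold, with 3.28% of spots higher) and near 0 at 4 h. The mean was 0.15 (SD 0.12, n = 4 arrays). With a running median over 51 neighbouring spot numbers removed, the 4 h value of Aldoc was -0.071 and its mean 0.084.

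The glutamate transporter was measured by 3 spots that did not give the same picture. Slc1a3 (chr15:8634124-8710807) was at -0.64, -0.51 and -0.24 on spot 4373 at 2, 4 and 6 h, and this spot was listed at 0 at 1 h. Spot 7492 was at -0.13, -0.12, -0.091 and 0.48 at 1, 2, 4 and 6 h, and spot 8616 at -0.072, 0.011, -0.34 and 0.045. Spot 4373 was the lowest of the 3 wherever it was measured, and spot 7492 was alone in passing 2-fold in the positive direction, at 6 h. At 2 h the spots spanned 0.65, from 4.35-fold negative to just above 0, and at 6 h they spanned 0.72 and had both signs. At 4 h all 3 were negative. At 1 h the 2 measured spots differed by 0.053. Over the arrays where each was measured, spot 4373 had a mean of -0.46 (3 arrays). Spots 7492 and 8616, measured on all 4 arrays, had means of 0.037 and -0.088. The mean of the spots was -0.098, -0.25, -0.31 and 0.097 at the 4 times, the 1 h value without spot 4373. The mean over times was -0.14 (SD 0.18, n = 4 arrays), and spot 4373 was the most negative part of it. Taking the lowest-numbered spot measured at each time in place of the mean of spots gave -0.38. That joins spot 7492 at 1 h with spot 4373 at 2, 4 and 6 h.

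Of 27 member values, 18 were positive and 9 negative. At 1 h none of 6 measured spots passed 2-fold, where 9.45% of all measured spots did. At 2 h 2 of 7 passed (Dio2 positive, Slc1a3 spot 4373 negative), with 7.94% of all spots. At 4 h 4 of 7 passed, Dio2 and Glul positive and Slc1a3 spots 4373 and 8616 negative, with 7.97% of all spots. At 6 h 1 of 7 passed, Slc1a3 spot 7492, with 25.4% of all spots. These shares are printed for scale only, since the same values chose the genes. The values just inside the threshold were Slc1a3 spot 8616 at 4 h (2.18-fold) and Dio2 at 4 h (2.55-fold), and those just outside were Aldoc at 2 h (1.94-fold) and Gfap at 6 h (1.91-fold). The counts depend on the assumed base: with base-2 or natural logs 0 member values pass 2-fold at any time. With the running median over neighbouring spots removed, Glul at 0.39, Gfap at 0.33, Slc1a3 spot 4373 at -0.37 and Slc1a3 spot 7492 at 0.445 passed at 6 h, 4 of 7 spots. The share of all spots past 2-fold was not counted after that removal.

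Close relatives of the members were looked at with the same centring and the same reading of exact zeros. Slc1a2, which encodes GLT-1, the main astrocyte glutamate transporter of the forebrain, had a gene mean between 0.049 and 0.11 on the 4 arrays. Its 3 spots differed, with spot 11467 between 0.14 and 0.37, spot 3204 between 0.0045 and 0.16, and spot 5270 at -0.205, 0.18, -0.14 and -0.36 at 1, 2, 4 and 6 h. Slc1a1, the transporter found mainly in neurons, was at -0.12, 0.19, 0.18 and 0.088. Aldoa, the widely expressed aldolase, was at 0.18, 0.11 and 0.11 at 2, 4 and 6 h, and not measured at 1 h. Dio1, the liver and kidney deiodinase, was at 0.13, 0.014 and -0.0902 at the same 3 times. Vim, a filament protein that assembles with Gfap, was at 0.0088, 0.13, 0.235 and 0.15. None of these 5 relatives reached 2-fold on any array as a gene mean. The members were counted spot by spot, and by that measure Slc1a2 did pass 2-fold. Its spot 11467 passed at 1 h (0.302) and 6 h (0.37), and its spot 5270 at 6 h (-0.36). As a gene mean, Slc1a3 passed 2-fold at 4 h alone (-0.31).

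Likeness to a member was measured as the root mean square difference of the 4 centred log ratios, over 10041 spots of other named genes measured on all 4 arrays (10040 for Slc1a3). For Gfap the nearest spots were those of Psmc3ip (0.0124) and Prkd1 (0.0194), and for Aldoc those of Ints4 (0.0250) and Hspa4 (0.0266). For Glul they were Hs6st3 (0.0423) and Ascl2 (0.0566). For Slc1a3 spot 7492 they were Gabrr2 (0.0205) and St7 (0.0266), and for spot 8616 Stk24 (0.0358) and Tmeff2 (0.0454). For Dio2 the nearest were Zfp37 (0.102) and Hap1 (0.136), further away than those of the other member spots. Distances were not scaled for the size of the values, and Dio2 was chosen by its mean on these arrays. Its larger distance is therefore not a separate result about its time course. Zfp37 was at 0.47 at 2 h, where Dio2 was at 0.64.

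A list of 50 other astrocyte markers was set beside the members, and 44 of them were named on the array. At 1 h 14 of 42 measured were positive, with a median of -0.056. At 2 h 25 of 43 were positive (median 0.033), at 4 h 28 of 44 (median 0.057) and at 6 h 31 of 43 (median 0.0596). The positive share thus went from 33.3% to 58.1%, 63.6% and 72.1%, while over all genes it was 50.4%, 49.7%, 49.8% and 48.6%. Past 2-fold were 4, 1, 3 and 5 of these markers at 1, 2, 4 and 6 h, or 9.52%, 2.33%, 6.82% and 11.6%, beside 8.47%, 6.58%, 7.07% and 21.9% of all genes. With the running median over neighbouring spots removed, the positive shares were 23.8%, 53.5%, 63.6% and 67.4%, and the medians -0.043, 0.0033, 0.0174 and 0.053. Without that removal, other cell types were also mostly negative at 1 h. Positive then were 35.7% of neuronal, 27.3% of oligodendrocyte and 38.5% of endothelial and mural markers. Microglia (66.7%) and choroid plexus (75.0%) markers went the other way.

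**Figure D2:**
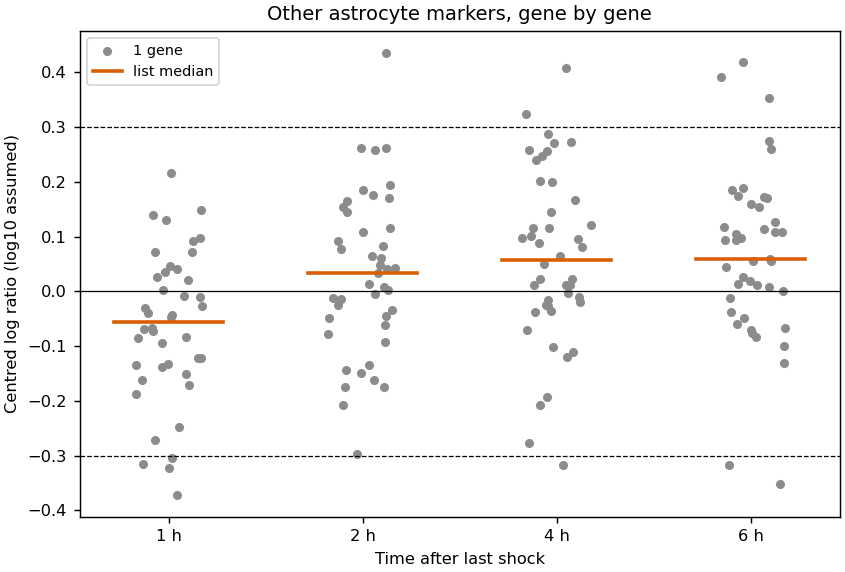
Centred log ratio (vertical axis, log10 assumed) of each of the other astrocyte markers on each array (horizontal axis, time after the last shock); a point is 1 gene, the orange line the list median and the dashed lines 2-fold. The median lies at -0.056 at 1 h and between 0.033 and 0.0596 at the later times, with most genes inside 2-fold.

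Among the markers with a value on all 4 arrays, the largest means belonged to Ppp1r3c, Kcnj10, Htra1 and Mt2. Ppp1r3c, a subunit that targets a phosphatase to glycogen and promotes its storage, was at 0.092, 0.43, 0.25 and 0.097, highest at 2 h as were Dio2 and Aldoc. Htra1, a secreted serine protease, was at 0.14, 0.26, 0.12 and 0.104. Mt2, a metallothionein that binds zinc, was at -0.13, 0.077, 0.26 and 0.39, negative at 1 h alone. Kcnj10, the Kir4.1 potassium channel through which astrocytes clear extracellular potassium, was negative on all 4 arrays, at -0.0084, -0.17, -0.21 and -0.32. No gene of the list passed 2-fold the same way on 3 or more arrays.

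The mean over the times was tested with limma across all genes measured on every array, and its error is the spread between times. The model called 0 of 8553 genes (0%) at an adjusted p under 0.05, and 973 (11.4%) had an unadjusted p under 0.05. Of the other astrocyte markers, 0 of 41 were called, and 2 positive (Htra1, Ppp1r3c) and 1 negative (Kcnj10) had an unadjusted p under 0.05. The limma adjusted p was 0.427 for Ppp1r3c and Htra1 and 0.43 for Kcnj10. The slope on hours asked whether log ratios differed steadily with time. It also called 0 of 8553 genes (0%), with 1250 (14.6%) at an unadjusted p under 0.05. In the marker list 4 of 41 had an unadjusted p under 0.05 for the slope, Mt2, Fabp7, Slc14a1 and Ptn, all positive. Without the 4 h array the slope called 418 of 8628 genes (4.84%), 0 of them among these 41 markers, and without any other single array it called 0. That fit leaves 1 residual degree of freedom per gene.

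The lists below are read against all genes, of which 8.47%, 6.58%, 7.07% and 21.9% were past 2-fold at 1, 2, 4 and 6 h. Genes that handle glutamate and glutamine had mixed values. Of 14 measured in a list of 27, 3, 9, 6 and 9 were positive at 1, 2, 4 and 6 h, with medians of -0.097, 0.071, -0.035 and 0.031. Past 2-fold were 0, 1, 2 and 0 of them, which is 7.14% at 2 h and 14.3% at 4 h. Slc38a3, a transporter that releases glutamine from astrocytes, had gene means of -0.11, -0.26, -0.25 and -0.195. Its spots disagreed at 2 h, with spot 4434 negative (-0.71, -0.44 and -0.27 at 2, 4 and 6 h, not measured at 1 h) and spot 9689 at -0.11, 0.19, -0.059 and -0.12. Slc1a6, a glutamate transporter of Purkinje cells, had a mean of -0.26 (SD 0.11, n = 4 arrays) and was negative on both its spots at all measured times. The spots differed in size. Spot 3319 stayed below 2-fold at -0.15, -0.15, -0.20 and -0.11. Spot 10612 was at -0.57, -0.52 and -0.27 at 2, 4 and 6 h and not measured at 1 h. Got2, the mitochondrial aspartate aminotransferase, was at -0.18, -0.043, -0.27 and -0.14. Slc38a1, which carries glutamine into neurons, was at 0.14, -0.038, -0.46 and -0.072, passing 2-fold at 4 h where Glul was positive at 0.498. limma called 0 of these 14 in the mean, with 3 (21.4%, beside 11.4% of all genes) at an unadjusted p under 0.05, Slc1a6, Slc38a3 and Got2, all negative.

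Genes of aldolases, glycogen and lactate had medians near 0, between -0.027 and -0.0057, with 5 of 18, 8 of 19, 9 of 19 and 8 of 19 positive at 1, 2, 4 and 6 h. Past 2-fold were 1, 3, 0 and 1 (5.56%, 15.8%, 0% and 5.26%). Slc2a1, the glucose transporter of brain endothelium and glia, was positive on all 4 arrays at 0.17, 0.32, 0.19 and 0.27. Pgm2, a phosphopentomutase, was negative on all 4 at -0.035, -0.32, -0.23 and -0.54. Slc16a3, a lactate exporter, was at 0.021, -0.29, -0.14 and -0.199. In the mean limma called 0 of 18, with adjusted p of 0.416 for Slc2a1 and 0.427 for Pgm2.

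Genes of thyroid hormone handling and response had medians between -0.0902 and -0.0084 on the 4 arrays. At 2 h, when Dio2 was highest, 7 of 15 were positive with a median of -0.019. Past 2-fold then was 1 (6.67%), Ttr, which encodes the thyroxine carrier transthyretin and is also a choroid plexus marker. Ttr was negative at -0.66, -1.27 and -0.12 at 2, 4 and 6 h and not measured at 1 h. It had the largest absolute mean of the list, and is named after its values were seen because it lacks 1 array. The counts were 4 of 11 positive at 1 h, 7 of 16 at 4 h and 7 of 15 at 6 h, with 1, 2 and 2 past 2-fold (9.09%, 12.5% and 13.3%). Thrb, a receptor for T3, was at -0.24, 0.13, 0.13 and 0.76, and Rxra, its partner receptor, at -0.12, -0.086, 0.21 and 0.68. Both were highest at 6 h, when Dio2 was at its lowest of 0.23. Nrgn, a neuronal calmodulin-binding protein gene known to respond to thyroid hormone, was at -0.49 at 1 h and between -0.19 and 0.084 later. Trip12, a ubiquitin ligase first found through the thyroid hormone receptor, was at 0.088, -0.019, -0.46 and -0.11. For the slope, limma gave an adjusted p of 0.136 for Thrb and 0.128 for Rxra with all arrays, and 0.0156 and 0.0207 without the 4 h array, the fit that called 4.84% of all genes. In the mean 0 of 11 were called, none of them at an unadjusted p under 0.05. Rxra was measured by spot 12511 alone at 1, 2 and 4 h, and by 2 spots at 0.696 and 0.66 at 6 h.

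**Figure D3:**
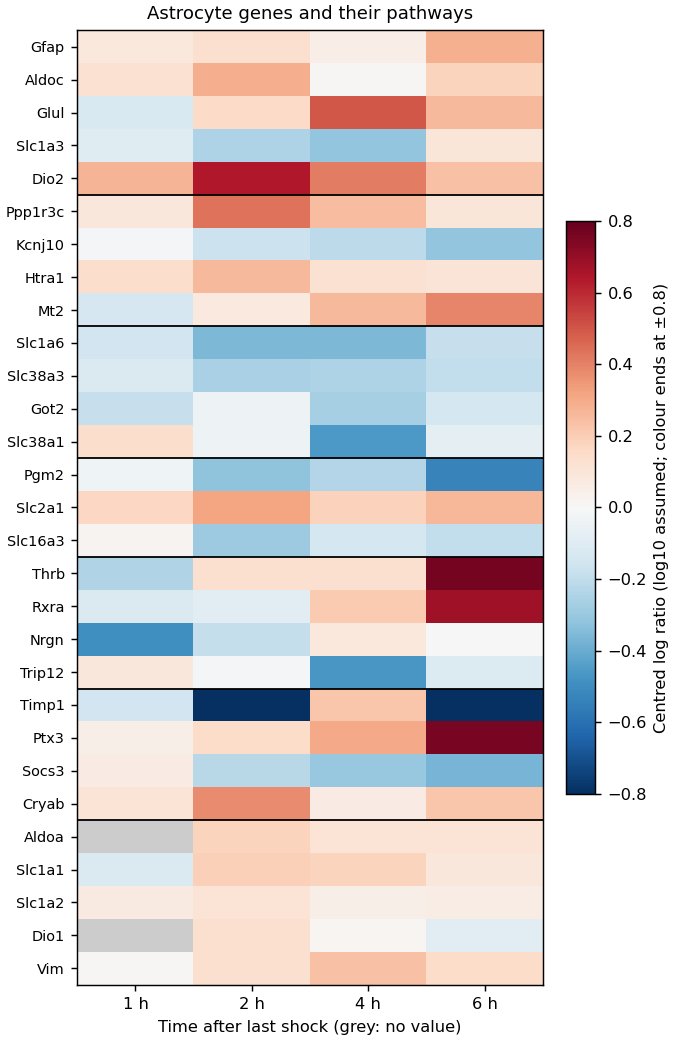
Heat map of the gene means of centred log ratios (colour, log10 assumed, ending at -0.8 and 0.8) for the 5 members at the top and the named genes of their pathways and paralogues below, in columns by time after the last shock; grey marks no value. Among the genes drawn, Dio2 at 2 h and Thrb, Rxra and Ptx3 at 6 h carry the strongest positive colours, and Timp1 at 2 and 6 h the strongest negative ones. Ttr, which was at -1.27 at 4 h, is not drawn.

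Intermediate filament and reactive astrocyte genes had positive medians on all 4 arrays. The list also holds filament genes of neurons and nuclear lamin genes, so its medians are not of astrocyte genes alone. Positive were 17 of 24, 16 of 26, 16 of 26 and 15 of 26 at 1, 2, 4 and 6 h, with medians of 0.053, 0.077, 0.073 and 0.027. Past 2-fold were 2, 4, 3 and 7 genes (8.33%, 15.4%, 11.5% and 26.9%). Of 24 with a value on all 4 arrays, 7 (29.2%) were positive on every array and 0 negative, beside 10.1% and 11.8% of all genes. Among the 7 were Nefh, a neuronal filament gene, and the lamin genes Lmnb1 and Lmnb2. Cryab, a small chaperone that binds glial filaments, was at 0.11, 0.38, 0.067 and 0.22. Ptx3, a secreted pentraxin, was at 0.046, 0.14, 0.304 and 0.76. Socs3, an inhibitor of STAT3 signalling, was at 0.063, -0.22, -0.31 and -0.37. Timp1, a metalloproteinase inhibitor, had gene means of -0.16, -1.24, 0.22 and -0.99. Its spots disagreed, with spot 17645 at -0.82, -2.45 and -1.64 at 1, 2 and 6 h and spot 1859 at 0.51, -0.034, 0.22 and -0.34 at 1, 2, 4 and 6 h. limma called 0 of 24 in the mean, with 5 positive (Nes, Nefh, Lmnb1, Ptx3 and Cryab) and 1 negative (Socs3) at an unadjusted p under 0.05, which is 25.0% beside 11.4% of all genes. For the slope it called 0 of 24 with all arrays, and 25.0% had an unadjusted p under 0.05, beside 14.6% of all genes. Of these, 2 were positive (S1pr3 and Ptx3) and 4 negative (Prph, Serpina3n, Lcn2 and Socs3). Without the 4 h array the slope fit called 2, Ptx3 (positive) and Prph (negative), a filament gene of peripheral neurons. Of the other lists, the pericyte receptor gene Pdgfrb was also called in that fit (adjusted p 0.0155), beside 4.84% of all genes.

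**Figure D4:**
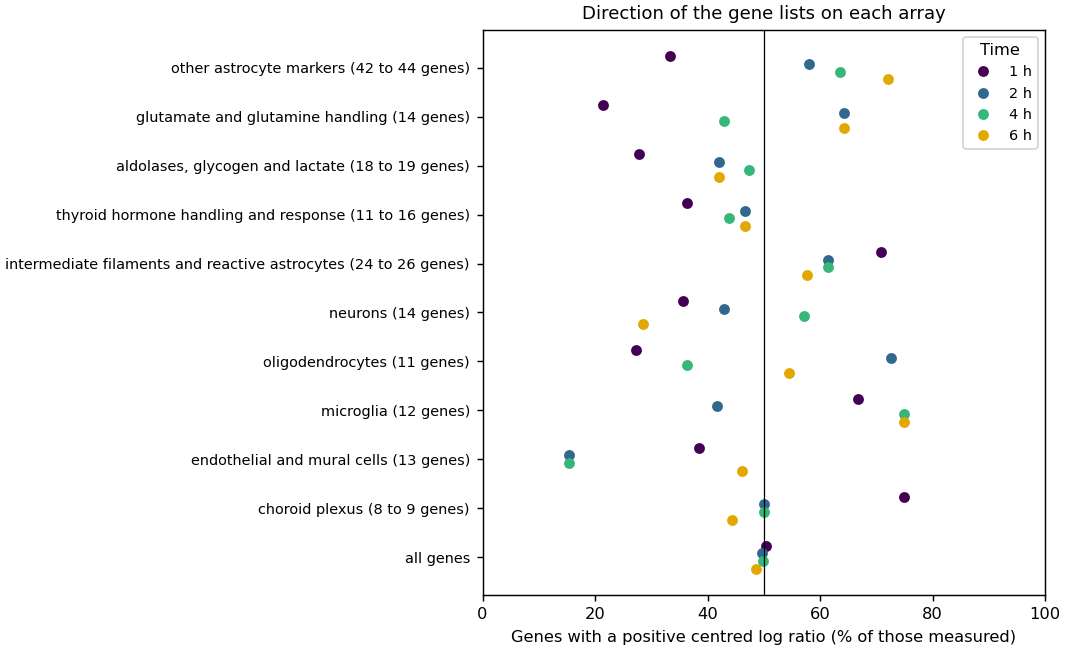
Share of measured genes with a positive centred log ratio (horizontal axis, percent) for each gene list and for all genes, with 1 point per array coloured by time after the last shock. The other astrocyte markers go from 33.3% at 1 h to 72.1% at 6 h, while all genes stay between 48.6% and 50.4%. At 1 h the glutamate, aldolase, thyroid, neuron, oligodendrocyte and endothelial lists also lie low, between 21.4% and 38.5%. The filament, microglia and choroid plexus lists lie at 70.8%, 66.7% and 75.0% at 1 h.

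Markers of the other cell types that a CA1 sample can hold also differed between arrays. Choroid plexus genes had a median of 0.47 at 1 h (6 of 8 past 2-fold) and medians between -0.12 and -0.0011 later. At 1 h the astrocyte, neuronal, oligodendrocyte, and endothelial and mural markers were all mostly negative. Aqp1 was positive on all 4 arrays (0.40, 0.013, 0.203 and 0.28), and Kl had a mean of -0.26 that rested on 1 of its 3 spots. Of 13 markers of endothelial and mural cells, 11 were negative at 2 h (median -0.13) and 11 at 4 h (median -0.12), and Cldn5 and Slco1a4 had means of -0.35 and -0.298. Kdr, a receptor for vascular endothelial growth factor, was past 2-fold on 3 arrays, at -0.32, -0.32 and -0.61 at 2, 4 and 6 h, and was named after its values were seen. Microglia markers were positive in 8, 5, 9 and 9 of 12 at 1, 2, 4 and 6 h, with Fcer1g and C1qb at means of 0.196 and 0.17. Neuronal markers were positive in 5, 6, 8 and 4 of 14, with Neurod6 at a mean of -0.22 and Wfs1, a CA1 marker, at 0.207. Oligodendrocyte markers were positive in 3, 8, 4 and 6 of 11, with Sox10 at a mean of -0.12. Mog also had a mean of -0.12, with its 3 spots apart at 6 h, at 0.016, -0.21 and -0.82. The part of these cell type differences in the astrocyte values was not tested.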

How the data were processed

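CA1 RNA of MK and MK C+S mice was hybridised to 4 arrays with 2 dyes, 1 per time. The authors deposited log10 ratios per spot (base assumed from their range, -3.10 to 1.58), and their scanner, correction, normalization and ratio direction are not stated in the labels. Each deposited column had a median of 0 with exact zeros included. Exact zeros (22.7%, 9.34%, 7.39% and 10.0% of 16281 spots at 1, 2, 4 and 6 h) were left out, and the remaining median (0.00547, -0.000381, 0.000728 and -0.00544) was subtracted. Intensities were not analysed here, and precision rests on the small number of arrays.

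The platform annotation gave 13738 spots 1 gene, 52 several and 2491 none. Of the first, 13694 matched RefSeq (GRCm38.p6) by Entrez identifier, with 0 symbols changed. Spots of a gene were averaged where measured. They differed with a pooled SD of 0.225, 0.204, 0.168 and 0.329 by time. limma 3.58.1 (R 4.3.3, lmFit and eBayes, two-sided) tested the mean over times and the slope on hours, with Benjamini-Hochberg adjustment over 8553 genes at 0.05. Both fits were run on simulated data with independent errors and all 4 arrays. That run did not cover the fits with an array left out, and its outcome is not used as support here. The error of the mean is the spread between times, and that of the slope is the spread around a line on hours. eBayes moderated both across genes, and neither holds an error from replicate arrays. The members, the 10 gene lists and the motifs were chosen with earlier results of these data known.

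Named beside the members were, among genes measured on all 4 arrays, the 4 with the largest absolute mean in each list about astrocytes or their pathways and the 2 with the largest in each list of other cell types. Also named were genes of the astrocyte lists past 2-fold one way on 3 or more arrays (there were none), paralogues, and the 2 nearest spots per member spot. Ttr, Kdr and genes named for an unadjusted p, or for a call without the 4 h array, were chosen after their values were seen. Alternatives covered zeros, centring, a running median, log base, size threshold, summary of spots, scaling, array weights, robust eBayes, genes on 3 or more arrays and leaving out each array.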

Additional observations from a re-analysis of the deposited data

Results flagged for a closer look

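Values that were negative at one time and positive at another stood out in 3 member spots and in the marker list, and the difference between the 2 times named was not tested in any of them. Glul ranged from -0.12 at 1 h to 0.498 at 4 h. Slc1a3 spot 7492 ranged from -0.13 at 1 h to 0.48 at 6 h, and Slc1a3 spot 8616 from -0.34 at 4 h to 0.045 at 6 h. The median of the other astrocyte markers ranged from -0.056 at 1 h to 0.0596 at 6 h.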

How the results depend on the processing

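The 5 member means over the times kept their sign in 50 recomputed values, and the 4 medians of the other astrocyte markers in 28. Both sets covered exact zeros, centring, the running median and the summary of spots. Scaling and left-out arrays were added for the means, and log base for the medians. Part of these values could not change sign. Another log base only rescales a median, and the summary of spots cannot alter a gene with 1 measured spot. That holds for every member but Slc1a3. Gfap, Aldoc and Dio2 were positive on all 4 arrays, so leaving out or scaling arrays could not turn their means negative. No setting left out Slc1a3 spot 4373 at every time, so how far the sign of that mean rests on this spot was not tested. Leaving out each array gave means of 0.0876 to 0.16 for Gfap, 0.104 to 0.196 for Aldoc, 0.096 to 0.302 for Glul, -0.22 to -0.083 for Slc1a3 and 0.304 to 0.44 for Dio2. The Slc1a3 mean was -0.38 from the first spot measured at each time, which was spot 7492 at 1 h and spot 4373 later. The marker median was -0.017 at 1 h and 0.0171 at 4 h with base-2 logs, and at 4 h it was 0.0247 with natural logs, 0.0174 with the running median removed and 0.0823 from the median of spots. At 2 h the median was 0.0033 with the running median removed and 0.0042 from the first measured spot, and at 6 h 0.0946 from the median of spots. Member spots past 2-fold numbered 0 at 2, 4 and 6 h with base-2 and with natural logs. They numbered 1 at 1 h and 6 at 6 h at 1.5-fold, 2 at 4 h at 3-fold, and 4 at 6 h with the running median removed. The share of all spots was not counted at these other settings. For scale, 42.8% of all spots at 6 h lay at least as far from 0 as Aldoc (1.51-fold). At 4 h 1.87% lay at least as far from 0 as Glul (3.14-fold). In the mean over times limma called 2 genes with array weights, 2 with the running median removed, 1 among genes on 3 or more arrays, and between 0 and 1 with an array left out, the 1 being without the 4 h array. For the slope it called between 0 and 418 with an array left out, the 418 being without the 4 h array, which leaves 1 residual degree of freedom per gene. The cause was not tested. No paired analysis was possible because each time has 1 array and the labels give no replicate numbers. Signal over background was not analysed here, which limits what a low spot can show.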

Other observations

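Spots that had no value at 1 h differed from the others at 6 h. Of 2423 spots listed at 0 at 1 h and measured at the other 3 times, the median at 6 h was 0.222, with 40.4% positive past 2-fold and 5.12% negative past 2-fold. For 11488 spots measured at all 4 times the 6 h median was -0.0227, with 6.13% and 13.3%. At 2 and 4 h the medians of the spots without a 1 h value were -0.00906 and 0.0264. At 2 h 9.08% of them were negative past 2-fold, beside 3.25% of the spots measured at all 4 times. Slc1a3 spot 4373 belongs to the first kind and lay at -0.24 at 6 h, on the other side of 0 from the median of that kind. The Slc38a3 spot 4434 and the Slc1a6 spot 10612 also had no 1 h value and were negative at 2, 4 and 6 h, as were 216 (8.91%) of the 2423. Among spots measured at all 4 times 21.5% were negative at those 3 times. These values were looked at after the data were seen, and no explanation was tested.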
